A study of Mus musculus with 10 samples.

Results

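The mRNA levels of 10 growth factor receptor genes, *Pdgfra*, *Pdgfrb*, *Fgfr1*, *Fgfr2*, *Egfr*, *Igf1r*, *Insr*, *Met*, *Axl* and *Lpar1*, were analyzed in serum-starved NIH3T3 cells with and without Lin37. The genes were taken as a list of receptors, without a threshold on their values, and they are 10 of the 45232 gene entries of the series. NIH3T3 is an immortalized mouse fibroblast line. Lin37 is a subunit of MuvB, the core of the DREAM complex that represses cell cycle genes in quiescent cells. All cells came from *Lin37* knockout clones made with a CRISPR/Cas9 nickase, one clone (411-27) with InDels at exon 4 and the other (632-2) with InDels at exon 6. Each clone carried a doxycycline-inducible pRTS episome, a plasmid kept outside the chromosomes, that expressed luciferase (KO) or wild-type Lin37 (rescue), so the rescue cells carry the same mutations as the KO cells. RNA was taken after 60 h in 0% FCS from cells grown in 10% FCS, and serum-fed cells were not analyzed here, so that these data hold no measure of what starvation does to the receptors. The exon 4 clone had 2 biological replicates each of KO and rescue. The exon 6 clone had 2 as well, and its sample 3 was a technical replicate of sample 2, which gave 10 libraries and 8 biological replicates. The exon and the clone cannot be told apart, since each exon is represented by 1 single-cell clone, and the labels do not say whether replicates came from separate transfections.

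Growth factor receptors carry the signals of serum into the cell. *Pdgfra* and *Pdgfrb* encode the receptor tyrosine kinases for platelet-derived growth factor, a major fibroblast mitogen of serum. *Fgfr1* and *Fgfr2* encode receptors for fibroblast growth factors, *Egfr* the receptor for EGF and related ligands, *Igf1r* and *Insr* the receptors for insulin-like growth factors and insulin, *Met* the receptor for hepatocyte growth factor, and *Axl* a receptor for Gas6. *Lpar1* is the exception in the list, a G protein-coupled receptor for lysophosphatidic acid, a lipid found in serum. On ligand binding the kinases activate Ras-MAPK and PI3K-Akt signaling, through which quiescent fibroblasts re-enter the cell cycle.

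Values are RPKM, reads scaled by gene length and by the reads of the library, as deposited and then divided by a factor per library that brings the libraries to a common median ratio over 8523 genes. The factors ran from 0.324 to 2.70, and in every same-numbered pair the KO library had the larger factor than the rescue library. Between 7920 and 22034 entries were at 0 in a library, and the number of reads behind the values is unknown. The label check held in all libraries, since *Lin37* was at 0.268 to 0.417 RPKM in the 5 KO libraries and at 2.12 to 5.11 RPKM in the 5 rescue libraries, a log2 change of -2.25 over both clones (SE 0.17, adjusted *p* = 0.000293, limma). Of 8 fibroblast markers, 7 averaged 1 RPKM or more in each clone, with summed levels of 464 to 579 RPKM in the exon 4 clone and 512 to 826 RPKM in the exon 6 clone, while the summed epithelial, leukocyte, endothelial, muscle or adipocyte markers reached at most 1.57 RPKM in a replicate.

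*Pdgfra* and *Egfr* are shown with their promoters because they had the lowest adjusted *p* of the receptors between KO and rescue, and because DREAM binds its targets through CHR and E2F elements. The sequences are those of RefSeq (GRCm38.p6), from 250 bases before to 50 bases after the transcription start. Promoters of 7 of the 10 receptors were searched, and those of *Pdgfrb*, *Fgfr1* and *Insr* were not. The *Pdgfra* promoter lies at chr5:75152001-75152300 and that of *Egfr* at chr11:16751953-16752252, both on the plus strand. Capitals mark a match to the CHR letters TTTGAA.
Pdgfra promoter: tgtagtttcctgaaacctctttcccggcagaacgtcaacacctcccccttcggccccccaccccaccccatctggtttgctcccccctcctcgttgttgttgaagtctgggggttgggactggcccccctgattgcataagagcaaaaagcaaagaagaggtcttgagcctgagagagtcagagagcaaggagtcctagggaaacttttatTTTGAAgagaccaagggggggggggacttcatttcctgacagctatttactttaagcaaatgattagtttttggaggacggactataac
Egfr promoter: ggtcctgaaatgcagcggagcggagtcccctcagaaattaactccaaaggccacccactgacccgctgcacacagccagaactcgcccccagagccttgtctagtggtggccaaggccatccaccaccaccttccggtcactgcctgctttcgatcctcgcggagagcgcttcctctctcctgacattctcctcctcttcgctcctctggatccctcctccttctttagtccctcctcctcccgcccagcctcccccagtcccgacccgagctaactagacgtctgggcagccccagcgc
Both strands were searched for TTTGAA, for the variant TTCGAA, and for the E2F-type letters TTCCCGC or TTCGCGC, and for the letters TTGCCGC or TTGGCGC of the same type. None of these motifs overlapped another in the promoters shown. The *Pdgfra* promoter held TTTGAA 1 time, with its first base at -39 from the start, and the *Egfr* promoter held none of these letters. TTTGAA was present in 17.9% of 32851 mouse promoters of this length, TTCGAA in 1.56%, and any of the E2F-type letters in 9.57%, so that a match is a description of the letters and not a binding site. Among the other receptors, *Met* held E2F-type letters at -246, and 1 *Lpar1* promoter held such letters at -101 and another held TTTGAA at 7 and TTCGAA at -76.

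*Pdgfra* was the receptor with the highest level in both clones and *Egfr* the one with the lowest. RPKM values are per length, so the genes can be compared. *Pdgfra* was at 39.7 ± 6.55 RPKM (SD, n = 4) in the exon 4 clone, higher than 98.8% of the genes tested, and in the exon 6 clone at 25.3 ± 6.01 RPKM (n = 4). *Axl* came next with 13.3 ± 1.33 RPKM in the exon 4 clone and 16.8 ± 1.18 RPKM in the exon 6 clone. Every *Pdgfra* replicate was above every *Axl* replicate of its clone with the technical replicates averaged, but in 1 library, the technical replicate of exon 6 KO, *Axl* (21.8 RPKM) was above *Pdgfra* (19.8 RPKM). *Lpar1* (9.34 ± 2.33 and 7.49 ± 1.21 RPKM in the exon 4 and the exon 6 clone) and *Fgfr1* (8.79 ± 0.705 and 6.77 ± 0.988 RPKM) followed, and their ranges overlapped in both clones. The ranges of *Axl* and *Lpar1* also overlapped in the exon 4 clone, and so did those of *Fgfr1* and *Pdgfrb* and of *Pdgfrb* and *Igf1r*, so that the order within this middle group did not exceed the spread.

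*Igf1r* and *Pdgfrb* were the pair that changed place between the clones. *Igf1r* was at 5.72 ± 0.944 RPKM in the exon 4 clone and 5.82 ± 0.367 RPKM in the exon 6 clone. *Pdgfrb* was at 6.69 ± 1.36 RPKM in the exon 4 clone, where it overlapped *Igf1r*, and at 3.33 ± 0.254 RPKM in the exon 6 clone, where all its replicates were below those of *Igf1r*. The lower end of the order held the same genes in both clones. *Met* ranged from 1.75 to 1.93 and from 1.68 to 1.91 RPKM and *Insr* was at 1.31 ± 0.222 and 1.35 ± 0.0543 RPKM in the exon 4 and the exon 6 clone, without overlap between the genes. *Fgfr2* (0.448 ± 0.125 and 0.492 ± 0.0706 RPKM) and *Egfr* (0.333 ± 0.191 and 0.433 ± 0.0895 RPKM) overlapped each other in both clones. No receptor was at 0 in any library.

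**Figure D1:**
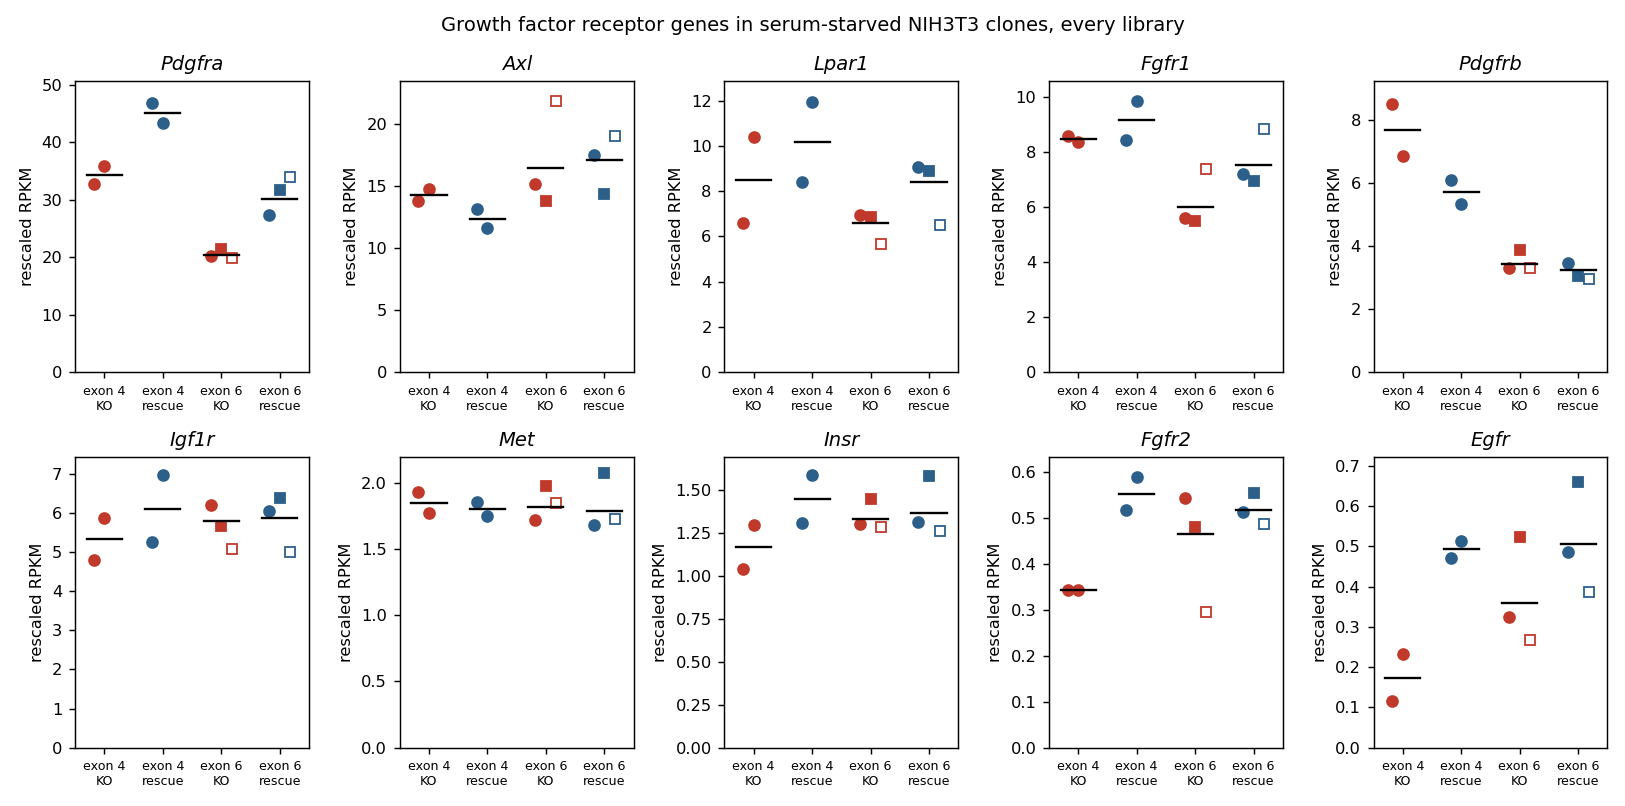
Rescaled RPKM of the 10 receptor genes in each library by clone and condition. Circles are biological replicate libraries, the filled square is replicate 2 of the exon 6 clone and the open square its technical replicate, and bars are means over 2 biological replicates. *Pdgfra* is highest in every group, and *Pdgfrb* is lower in the exon 6 clone (3.33 RPKM) than in the exon 4 clone (6.69 RPKM).

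The first comparison asks whether the receptors differ between cells without Lin37 and cells in which it was put back. Over both clones, 0 of the 10 receptors passed the test in either direction (limma, Benjamini-Hochberg adjusted *p* under 0.05), where 1.69% of 16866 genes did, 271 higher and 14 lower in KO. At an unadjusted *p* under 0.05, *Pdgfra* and *Egfr* were lower in KO, 2 of the 10 receptors, against 8.79% of all genes in either direction. With the replicate number as a block *Lpar1* joined them, which made 3 of 10 against 12.6% of all genes, and still 0 passed after adjustment. The median log2 change of the receptors was -0.16 and that of all genes tested -0.03. In bulk RNA, fewer cells with a transcript and less of it per cell cannot be told apart.

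Of the PDGF receptors, *Pdgfra* was lower in KO in all 4 pairs of biological replicates but did not pass the test. Its exon 4 values were 32.7 and 35.9 RPKM in KO, below 46.9 and 43.3 RPKM in rescue. Its exon 6 values were 20.3 and 21.4 RPKM in KO, with 19.8 RPKM in the technical replicate, and 27.4 and 31.7 RPKM in rescue, with 34.0 RPKM in the technical replicate. Within each clone KO and rescue did not overlap, while the KO libraries of the exon 4 clone overlapped the rescue libraries of the exon 6 clone. The ratio of means, KO over rescue, was 0.760 in the exon 4 and 0.679 in the exon 6 clone. The log2 change over both clones was -0.47 (SE 0.11, 95% interval -0.72 to -0.22, unadjusted *p* = 0.00233, adjusted *p* = 0.102, limma). With technical replicates entered as separate libraries it was -0.50 and passed (adjusted *p* = 0.0226, limma). That setting counts a technical replicate as a culture of its own, so its *p*-value rests on too many replicates.

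*Pdgfrb* had the opposite sign, without passing. Its KO libraries were at 8.51 and 6.84 RPKM and its rescue libraries at 6.08 and 5.32 RPKM in the exon 4 clone, with KO above rescue. KO of the exon 6 clone was at 3.28, 3.88 and, in the technical replicate, 3.29 RPKM, and rescue at 3.46, 3.04 and, in the technical replicate, 2.96 RPKM, which overlap. The log2 change over both clones was 0.24 (SE 0.12, 95% interval -0.03 to 0.50, adjusted *p* = 0.626, limma).

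The ratio of the PDGF receptors within a library does not depend on the factors, and was looked at after these values were seen. *Pdgfra* over *Pdgfrb* was 3.84 and 5.25 in KO and 7.72 and 8.14 in rescue in the exon 4 clone. It was 6.18, 5.51 and, in the technical replicate, 6.03 in KO of the exon 6 clone, and 7.91, 10.4 and, in the technical replicate, 11.5 in its rescue. All 5 KO libraries were below all 5 rescue libraries. *Pdgfra* also made up less of the summed RPKM of the 10 receptors in KO within each clone. Its share was 41.7% and 41.9% in KO and 50.8% and 46.4% in rescue in the exon 4 clone, and 29.7% to 34.8% in KO and 36.7% to 42.4% in rescue in the exon 6 clone. These are descriptions, without a test.

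**Figure D2:**
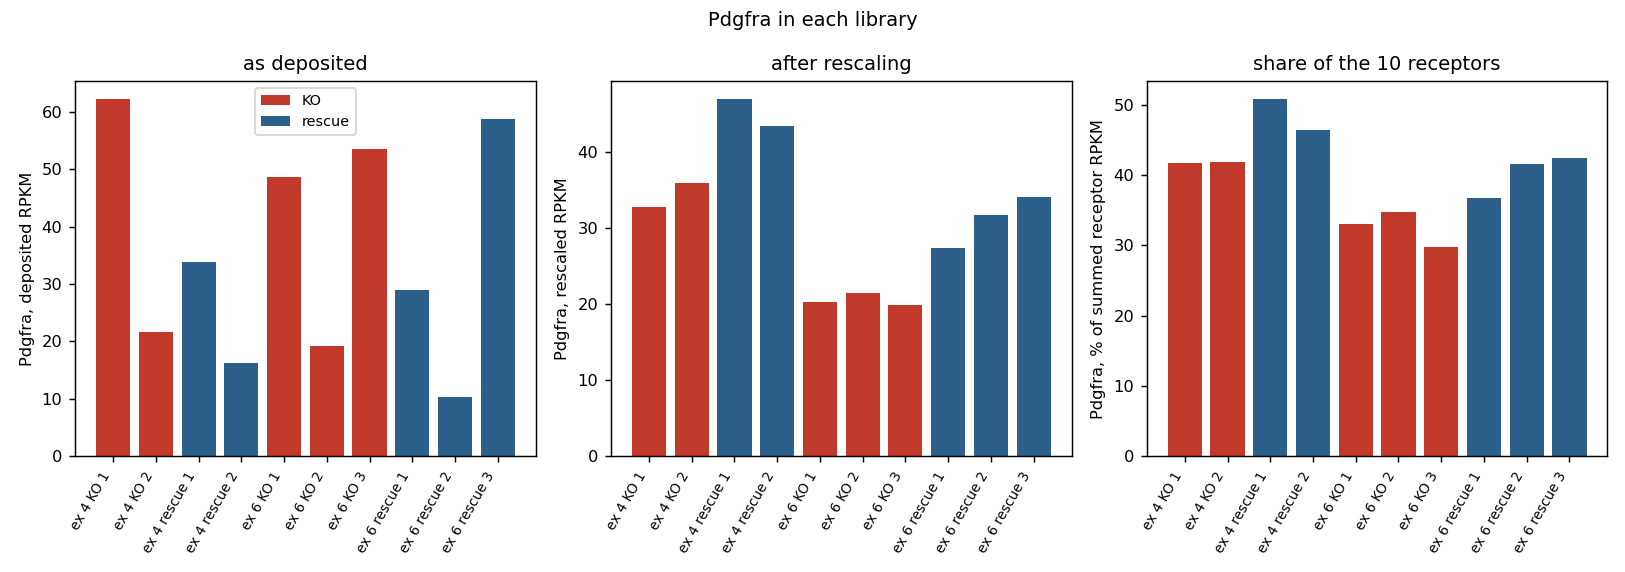
*Pdgfra* in each library as deposited and after rescaling, and its share of the summed receptor RPKM, by clone and condition. Bars are single libraries, and number 3 is the technical replicate of number 2 in the exon 6 clone. The deposited values do not separate KO from rescue, whereas the rescaled values and the share, which the factor cannot move, are lower in KO within each clone (41.7% and 41.9% against 50.8% and 46.4% in the exon 4 clone).

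*Egfr* was near the lower end of the measured range, and all 4 KO replicates were below all 4 rescue replicates, which 1.4% of all genes showed. The exon 4 libraries were at 0.117 and 0.232 RPKM in KO and at 0.470 and 0.515 RPKM in rescue. Those of the exon 6 clone were at 0.326 and 0.523 RPKM in KO, with 0.267 RPKM in the technical replicate, and at 0.486 and 0.661 RPKM in rescue, with 0.386 RPKM in the technical replicate. As single libraries of the exon 6 clone the conditions therefore overlapped, and they were apart only with the technical replicates averaged. The log2 change over both clones, on the log2(RPKM + 0.5) scale that understates changes of low genes, was -0.39 (SE 0.11, 95% interval -0.65 to -0.14, unadjusted *p* = 0.00762, adjusted *p* = 0.226, limma). The ratio of means was 0.354 in the exon 4 and 0.714 in the exon 6 clone. *Pdgfra* and *Egfr* were the 2 of 10 receptors with KO below rescue and no overlap within both clones, as for 4.78% of all genes. Both signs depend on the rescaling. On RPKM as deposited the median of all genes was 0.64 higher in KO on the log2 scale, *Pdgfra* was at 0.52 and *Egfr* at 0.055, which is -0.12 and -0.58 relative to that median. In the exon 4 clone alone *Pdgfra* was at 0.06 relative to the median there, a change of sign, and *Egfr* was at -0.74. The added 0.5 shrinks changes of low genes, so this median is smaller than the shift of a high gene. Rescaling moved *Pdgfra* in that clone from 0.63 to -0.39, so its sign relative to the median is uncertain.

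*Eldr*, a non-coding gene named for *Egfr*, lies 16995 bases from *Egfr* on the opposite strand (chr11, 16935154 to 16951282, GRCm38). It was at 0.119 and 0.163 RPKM in KO and 0.132 and 0.0629 RPKM in rescue in the exon 4 clone, which overlap. Exon 6 libraries were at 0.176, 0.308 and, in the technical replicate, 0.179 RPKM in KO and at 0.0449, 0.0608 and, in the technical replicate, 0.0342 RPKM in rescue, with KO above rescue. The ratio of means of *Eldr*, KO over rescue, was 1.44 in the exon 4 and 4.54 in the exon 6 clone. Its log2 change over both clones was 0.24 (adjusted *p* = 0.616, limma) and so did not pass, and its sign was the opposite of that of *Egfr*. The study lists *Eldr* among its genes up-regulated without Lin37, by an edgeR test that was not repeated here. As for *Egfr*, the log2 scale used understates changes of low genes, so 0.24 understates the change of *Eldr*.

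Of the other receptors, *Lpar1* and *Insr* were lower in KO in all 4 pairs, so that 4 of the 10 receptors were, where 13.0% of all genes were. *Met* was higher in KO in all 4 pairs, as were 8.96% of all genes, and the other 5 receptors were mixed. *Lpar1* was at 6.58 and 10.4 RPKM in KO and 8.42 and 11.9 RPKM in rescue in the exon 4 clone, and at 6.95, 6.87 and 5.64 RPKM in KO and 9.08, 8.89 and 6.50 RPKM in rescue in the exon 6 clone, the last of each being the technical replicate. The exon 4 replicates of *Lpar1* differed more within a condition than between conditions, and the log2 change over both clones was -0.29 (SE 0.16, adjusted *p* = 0.685, limma). Blocked on the replicate number, its SE was 0.09 (95% interval -0.49 to -0.09, unadjusted *p* = 0.0115, adjusted *p* = 0.220). *Insr* was at 1.04 to 1.45 RPKM in KO and 1.26 to 1.59 RPKM in rescue over the 10 libraries, with a log2 change of -0.12. Its IGF counterpart *Igf1r* was at 4.79 to 6.97 RPKM in all libraries, with a log2 change of -0.10.

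The FGF receptors were lower in KO in 3 of 4 pairs. *Fgfr1* was at 8.57 and 8.34 RPKM in KO and 8.43 and 9.84 RPKM in rescue in the exon 4 clone, which overlap, and at 5.58, 5.49 and 7.38 RPKM in KO and 7.19, 6.93 and 8.81 RPKM in rescue in the exon 6 clone, the last of each being the technical replicate. Its log2 change over both clones was -0.20 (SE 0.10, adjusted *p* = 0.633, limma). *Fgfr2* was at 0.295 to 0.589 RPKM in all libraries, with KO below rescue in the exon 4 clone (ratio of means 0.621) and an overlap in the exon 6 clone (0.902). Its log2 change over both clones was -0.20, and -0.35 with a pseudocount of 0.1 (adjusted *p* = 0.609, limma). *Met* was the receptor with the smallest change, 0.02 on the log2 scale with a 95% interval of -0.17 to 0.22, at 1.68 to 2.07 RPKM in all libraries. *Axl* was at 0.07 on the same scale (95% interval -0.17 to 0.32), and its highest library, 21.8 RPKM, was the technical replicate of a KO library at 13.8 RPKM.

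Each clone was also analyzed alone. In the exon 6 clone, 0 of 10 receptors passed the test, where 1.3% of 15301 genes did. At an unadjusted *p* under 0.05 there was 1, against 11.8% of all genes, namely *Pdgfra* with a log2 change of -0.54 (SE 0.14, 95% interval -0.90 to -0.19, adjusted *p* = 0.234, limma). *Lpar1* (-0.32) and *Fgfr1* (-0.31) followed, and with the block all 3 were under this unadjusted threshold, against 12.8% of all genes. The exon 4 clone had 0 of 10 that passed, as did 0.0% of 18751 genes. At an unadjusted *p* under 0.05 it had 1, against 4.1% of all genes, namely *Egfr* with a log2 change of -0.56 (SE 0.21, 95% interval -1.09 to -0.03, adjusted *p* = 0.988, limma). *Pdgfra* was at -0.39 and *Pdgfrb* at 0.39 there, and with the block *Pdgfrb* was also under this threshold, against 9.25% of all genes. In this clone *Lin37* itself did not pass, with a log2 change of -1.84 (adjusted *p* = 0.167, limma).

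The test of the difference between the clones called 0 of 10 receptors and 0.0% of 16866 genes, and 0 receptors were at an unadjusted *p* under 0.05, against 4.06% of all genes. The differences in log2 change, exon 6 minus exon 4, ran from -0.31 for *Pdgfrb* (95% interval -0.83 to 0.20) to 0.34 for *Egfr* (95% interval -0.14 to 0.81), with -0.15 for *Pdgfra* (95% interval -0.67 to 0.37).

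**Figure D3:**
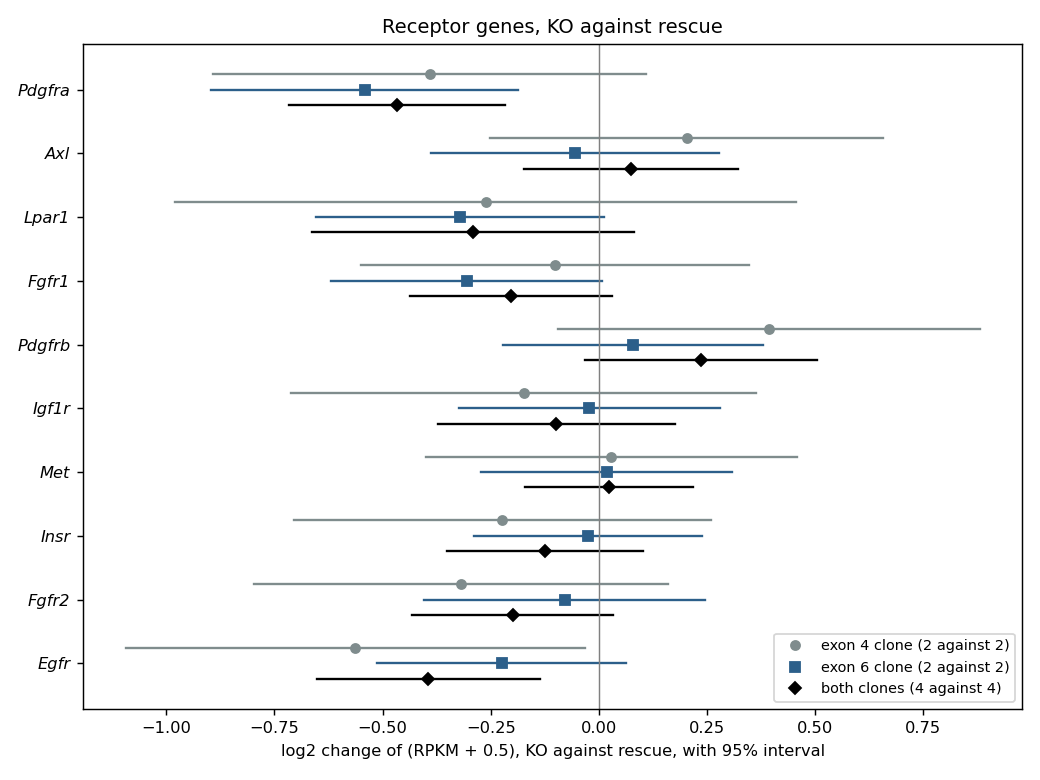
Log2 change of each receptor, KO against rescue, over both clones and in each clone alone, with 95% intervals from limma. The intervals of *Pdgfra* and *Egfr* over both clones (-0.72 to -0.22 and -0.65 to -0.14) lie below 0, and no change passes after adjustment over all genes.

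Technical replicates differed as much as cultures did. In 15 of 20 cases (10 receptors in KO and rescue) the technical replicates of the exon 6 clone differed more, on the log2 scale, than its biological replicates 1 and 2. The median technical difference was 0.24 in KO and 0.28 in rescue, and the median biological difference 0.11 in KO and 0.18 in rescue. For *Pdgfra* the technical difference was 0.11 in KO and 0.10 in rescue, under its KO against rescue change, and for *Egfr* it was 0.42 and 0.39, as large as its change.

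The second comparison is between the clones. *Pdgfrb* and *Pdgfra*, 2 of the 10 receptors, were lower in the exon 6 clone, where 13.6% of all genes differed in either direction and 6.71% were lower. With 10 genes, the receptors' share of 20.0% is 2 genes. *Pdgfrb* was at 5.32 to 8.51 RPKM in the 4 replicates of the exon 4 clone and at 3.00 to 3.59 RPKM in those of the exon 6 clone, without overlap, and its log2 difference was -0.89 (SE 0.12, 95% interval -1.16 to -0.62, adjusted *p* = 0.00254, limma). *Pdgfra* was at 32.7 to 46.9 RPKM in the exon 4 clone and 20.3 to 32.8 RPKM in the exon 6 clone, with an overlap of the lowest exon 4 KO replicate and the highest exon 6 rescue replicate. Its log2 difference was -0.66 (SE 0.11, 95% interval -0.90 to -0.41, adjusted *p* = 0.00703, limma).

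*Fgfr1* and *Axl* did not pass, and their clones were apart only with the technical replicates averaged. As single libraries, *Fgfr1* reached 8.81 RPKM in the exon 6 clone and *Axl* was as low as 13.8 RPKM there, within the exon 4 ranges. *Fgfr1* was at 8.34 to 9.84 RPKM in the exon 4 clone and 5.58 to 7.87 RPKM in the exon 6 clone. Its log2 difference was -0.36 (SE 0.10, adjusted *p* = 0.0507, limma), and with the replicate number as a block it passed (adjusted *p* = 0.0362). That block joins same-numbered replicates of different clones, a pairing that was not checked. *Axl* was at 11.6 to 14.7 RPKM in the exon 4 clone and 15.1 to 17.8 RPKM in the exon 6 clone, a log2 difference of 0.32 (SE 0.11, adjusted *p* = 0.0843, limma). With *Pdgfrb*, which was apart in single libraries too, 3 of 10 receptors were apart between the clones in these replicates, as were 20.5% of all genes. The log2 differences of the other 6 receptors ran from -0.28 (*Lpar1*, 95% interval -0.65 to 0.09) to 0.19 (*Egfr*, 95% interval -0.07 to 0.45). Without rescaling, the median of all genes was 0.51 higher in the exon 6 clone on the log2 scale. On these values *Pdgfrb* was at -0.05 (adjusted *p* = 0.934, limma) and *Pdgfra* at 0.30 (adjusted *p* = 0.653, limma), and neither passed. Relative to the median of all genes *Pdgfrb* was at -0.56 and *Pdgfra* at -0.20, which was not tested. Here too the added 0.5 makes the median smaller than the shift of high genes. Among KO replicates alone the log2 difference was -1.05 for *Pdgfrb* (adjusted *p* = 0.0710, limma) and -0.73 for *Pdgfra* (adjusted *p* = 0.111), and among rescue replicates alone -0.73 (adjusted *p* = 0.145) and -0.58 (adjusted *p* = 0.219), so that the direction held in both conditions and the calls did not. Over all genes, 60 higher and 48 lower of 15962 were called in KO alone, and 14 and 13 of 17979 in rescue alone. Fibroblast markers differed between the clones as well, with 4 of 8 higher in the exon 6 clone, among them *Thy1* at 1.14 ± 0.539 RPKM in the exon 4 clone and 8.53 ± 0.753 RPKM in the exon 6 clone. Its part in the receptor differences was not tested.

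The genes around the receptors were taken as lists of ligands, other receptors of the same families, signaling proteins, feedback and turnover factors, and IGF-binding proteins. Of their 94 genes, 65 passed the minimum level of 0.1 RPKM, and 0 of these passed the KO against rescue test over both clones (limma, lowest adjusted *p* = 0.506), with 2 at an unadjusted *p* under 0.05, *Pdgfa* and *Frs2*, both at -0.25 on the log2 scale. These were named after their values were seen. *Pdgfa* encodes a ligand of the receptor made by *Pdgfra*, and *Frs2* the docking protein of the FGF receptors. A positive log2 change was found for 7 of 11 ligand genes tested, 1 of 6 other receptors, 10 of 26 signaling genes, 11 of 19 feedback genes and 3 of 3 IGF-binding proteins, against 3 of the 10 receptors and 41.0% of all genes.

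Between the clones, where 13.6% of all genes were called, genes of every list were called. Of 11 ligand genes tested, 2 were higher and 4 lower in the exon 6 clone (54.5%), with a median log2 difference of -0.43 against -0.05 over all genes. *Fgf10*, an FGF that acts mainly on a splice form of *Fgfr2*, was at 3.56 ± 0.453 RPKM in the exon 4 clone and 1.39 ± 0.297 RPKM in the exon 6 clone. *Ereg*, which encodes an EGF receptor ligand, was at 1.18 ± 0.333 and 0.221 ± 0.0784 RPKM in this order. *Hbegf*, another EGF receptor ligand, had the opposite sign with 0.556 ± 0.167 and 1.76 ± 0.0909 RPKM, and *Igf2* was at 0.112 ± 0.106 and 1.02 ± 0.285 RPKM. The ligand with the highest level was *Fgf7*, named after its values were seen, at 34.8 to 39.3 RPKM in the exon 4 clone and 21.6 to 25.4 RPKM in the exon 6 clone.

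Of the IGF-binding proteins, which hold IGFs outside the cell, 3 were tested and 2 were lower in the exon 6 clone, *Igfbp4* with 21.9 ± 2.82 RPKM in the exon 4 clone and 3.39 ± 0.889 RPKM in the exon 6 clone (log2 difference -2.54, SE 0.14, adjusted *p* = 7.1e-05, limma), and *Igfbp7* with 9.11 ± 3.49 and 2.92 ± 0.107 RPKM. The receptors *Igf1r* and *Insr* themselves were at log2 differences of 0.03 and 0.04. *Igf2r*, a scavenger receptor of IGF2 and the only other receptor called (1 of 6 tested, 16.7%), was at 13.8 ± 1.76 and 8.58 ± 0.742 RPKM. *Irs1*, the docking protein of both receptors, was higher in the exon 6 clone with 3.29 ± 0.568 and 7.40 ± 1.44 RPKM.

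Of 26 signaling genes, 3 were higher and 1 lower in the exon 6 clone (15.4%), a share near the 13.6% of all genes. Besides *Irs1*, the higher genes were *Map2k2*, a MAPK kinase (3.01 ± 0.312 and 4.84 ± 0.445 RPKM in the exon 4 and the exon 6 clone), and *Hras* (0.625 ± 0.0746 and 1.11 ± 0.0808 RPKM). The lower gene was *Pik3r1*, a regulatory subunit of PI3K, with 1.27 ± 0.0874 and 0.488 ± 0.0646 RPKM. Of 19 feedback and turnover genes, 2 were higher and 7 lower (47.4%). The 4 with the largest changes were all lower, the MAPK phosphatase genes *Dusp1* (8.16 ± 1.49 and 3.87 ± 0.998 RPKM) and *Dusp4* (0.698 ± 0.153 and 0.226 ± 0.0216 RPKM), the Ras-MAPK inhibitor gene *Spred1* (2.31 ± 0.127 and 1.11 ± 0.0762 RPKM), and *Grb14*, an adaptor that inhibits the insulin receptor (4.86 ± 0.739 and 3.00 ± 0.432 RPKM).

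**Figure D4:**
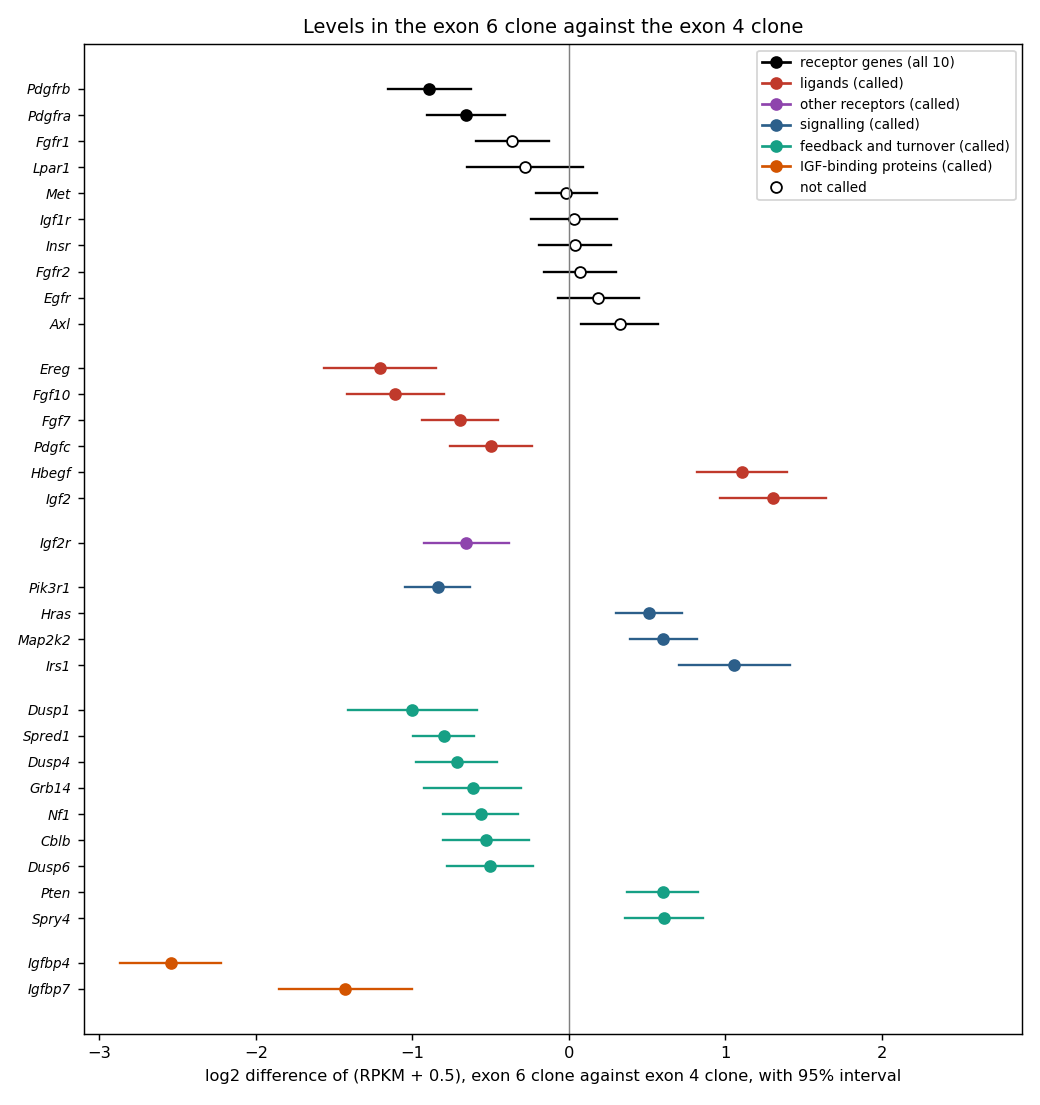
Log2 difference between the clones (exon 6 against exon 4, on the log2(RPKM + 0.5) scale) of the 10 receptors and of the called genes of the 5 lists, with 95% intervals; open circles did not pass. *Pdgfrb* (-0.89) and *Pdgfra* (-0.66) are the called receptors, and *Igfbp4* (-2.54) has the largest difference.

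The genes whose levels were most like those of *Pdgfra* and *Pdgfrb* over the 8 biological replicates were sought among 7542 genes that averaged 1 RPKM or more. For *Pdgfra* they were *Dcaf5*, *Pcnx*, *Snx1*, *Tnks1bp1* and *Kif3b*, with Pearson *r* of 0.985, 0.980, 0.978, 0.962 and 0.958, and 48 genes reached an *r* of 0.9. For *Pdgfrb* they were *Camkk2*, *Pcdhgc3*, *Slc29a1*, *Baiap2* and *Ctsb*, with *r* from 0.994 to 0.989, and 228 genes reached 0.9. The 5 genes named for each receptor were all lower in the mean of the exon 6 clone. One was *Ctsb*, a lysosomal protease gene, with 12.1 RPKM in the exon 4 clone and 4.58 RPKM in the exon 6 clone. The points share the clone difference and the library factors, so these values are descriptions.

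Some of the receptors overlap other genes in GENCODE M21, an annotation later than that used for counting. *Pdgfra* (chr5, 75152292 to 75198215, plus strand) overlaps 2 genes on the opposite strand, *Egfr* (chr11, 16752203 to 16918158, plus strand) overlaps *Egfros* on the opposite strand, and *Fgfr1* and *Insr* overlap opposite-strand genes as well. Whether counting used the strand is not given in the sources used here, and without it reads of such pairs cannot be told apart. The *Fgfr2* entry spans 69 other genes, so that its value is uncertain.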

How the data were processed

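RNA was depleted of ribosomal RNA and sequenced as 2 × 100 bp reads by the authors, who clipped adapters with cutadapt 1.8.3, mapped to mm10 with segemehl 0-2-0 and assigned reads to genes of GENCODE vM5 with rnacounter 1-5-2. The deposited values are RPKM, and the reads in the library total behind them are not given in the sources used here. Multiplied by the gene lengths of GENCODE M21, between 19.0% and 35.2% of low RPKM fell on multiples of the commonest low value (tolerance 0.05 reads), so counts were not recovered, depth stayed unknown, and the authors' edgeR test was not repeated.

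The libraries were rescaled by median-of-ratios factors computed on 8523 genes, and technical replicates were averaged. All genes averaging 0.1 RPKM or more were tested on log2(RPKM + 0.5) with limma 3.58.1 (R 4.3.3, eBayes with trend, clone as covariate over both clones), and *p*-values were adjusted over all genes by the Benjamini-Hochberg method and called under 0.05. Positions came from GENCODE M21. The procedure was also run on simulated data. Their libraries were drawn independently, without the shared deviations given below, so that run does not show how the procedure performs on these data.

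KO and rescue share replicate numbers in the labels, and same-numbered replicates of a clone deviated together. The correlation of deviations from the group means was 0.432 in the exon 4 and 0.217 in the exon 6 clone over 16866 genes. Each comparison was therefore also fitted with the replicate number as a block. Between the clones the block joined same-numbered replicates of different clones, a pairing that was not checked. Named were all 10 receptors, *Lin37*, *Eldr*, up to 4 called genes with the largest change per list, and the 5 genes most like the highest receptor and like the one that differed most between clones. The receptors and the gene lists were chosen with earlier results of these data known. *p*-values measure the spread between these replicates of 2 clones only. Alternatives were another pseudocount, minimum level, scaling, variance trend, treatment of technical replicates, clone covariate or set of samples, and leaving out each replicate.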

Additional observations from a re-analysis of the deposited data

Results flagged for a closer look

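Among 40 sets of 4 biological replicates of the receptors (KO, rescue, and each clone), 3 had an extreme replicate whose gap to its neighbor, as a share of the whole range, exceeded Dixon's 95% critical value. Chance flags about 1 in 20 sets of independent values from 1 group. These sets mix clones or conditions and share values, so that rate need not hold for them. In the exon 4 clone, *Fgfr1* was highest in rescue replicate 2, with a gap of 0.846 of the range. In the 4 rescue replicates of both clones, *Fgfr2* ranged from 0.513 to 0.589 RPKM, and the highest, exon 4 rescue replicate 2, stood apart with a gap of 0.904 of the range. In the KO replicates, *Lpar1* was highest in exon 4 KO replicate 2, with a gap of 0.833 of the range.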

How the results depend on the processing

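Of the recomputed log2 changes of the receptors, 645 kept their direction and their side of the threshold, and 56 changed sign. With the sign kept, 9 came to pass and 5 no longer passed. Some sign changes on RPKM as deposited also crossed the threshold. *Igf1r*, *Insr*, *Axl* and *Lpar1* came to pass in the exon 6 clone, and *Pdgfra* no longer passed between the clones. The number of receptors that passed KO against rescue over both clones was 0, and 1 (*Pdgfra*) with technical replicates as separate libraries, which are not independent cultures. In the exon 6 clone it was 0, and 6 on RPKM as deposited, all higher in KO. On those values 10040 of 16361 genes were called higher and 47 lower. Between the clones it was 2, and 0 on RPKM as deposited, 0 in rescue only and 0 in KO only. Few genes of any kind were called in the last 2 settings, 14 higher and 13 lower of 17979 in rescue only. In KO only they were 60 higher and 48 lower of 15962. Leaving out a replicate gave 0 to 0 receptors in the KO comparisons and 2 to 3 between the clones. With the replicate block, 0 receptors passed between KO and rescue and 3 between the clones, the third being *Fgfr1*, and no other call changed. *Fgfr1* also passed between the clones with pseudocount 0.1 (adjusted *p* = 0.0492, limma), with a minimum of 1 RPKM, with quantile normalization, and without technical replicates or exon 4 rescue replicate 1.

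On RPKM as deposited the median of all genes moved by 0.64 over both clones, and the log2 change of KO against rescue turned positive for *Pdgfra* (0.52), *Fgfr1* (0.75), *Fgfr2* (0.33), *Egfr* (0.055), *Igf1r* (0.86), *Insr* (0.65) and *Lpar1* (0.69). The exon 6 clone gave 0.41, 0.63, 0.47, 0.28, 0.96, 0.79 and 0.67, with *Axl* at 0.93. The exon 4 clone gave *Pdgfra* at 0.63, *Fgfr1* at 0.87, *Fgfr2* at 0.19, *Igf1r* at 0.77, *Insr* at 0.50 and *Lpar1* at 0.71. Between the clones *Pdgfra* was at 0.30, *Fgfr1* at 0.59, *Met* at 0.69 and *Lpar1* at 0.58. Relative to the median of all genes, *Pdgfra* was at -0.12, *Fgfr2* at -0.31 and *Egfr* at -0.58 over both clones, while *Fgfr1* (0.12), *Igf1r* (0.23), *Insr* (0.01) and *Lpar1* (0.05) stayed positive, as did *Pdgfra* in the exon 4 clone (0.06). *Fgfr1* was at 0.09 relative to it between the clones. The added 0.5 makes this median smaller than the shift of high genes, so these relative signs are uncertain. The other sign changes were of values near 0. With quantile normalization *Igf1r* was at 0.029 and *Met* at -0.000576 in the exon 6 clone, and *Met* at 0.014 between the clones. Without technical replicates *Met* was at -0.012 in the exon 6 clone and 0.019 between the clones, where it was at 0.0046 with them as separate libraries. In rescue only, *Fgfr2* was at -0.049, *Igf1r* at -0.042 and *Insr* at -0.059 between the clones. Leaving out each replicate moved *Met* from -0.0037 to 0.052 over both clones. Within the exon 6 clone it moved *Pdgfrb* from -0.010 to 0.17, *Fgfr2* from -0.20 to 0.039, *Igf1r* from -0.12 to 0.072, *Insr* from -0.067 to 0.015, *Met* from -0.052 to 0.088 and *Axl* from -0.17 to 0.059. Within the exon 4 clone it moved *Fgfr1* from -0.21 to 0.0039, *Igf1r* from -0.36 to 0.015, *Met* from -0.021 to 0.078 and *Lpar1* from -0.57 to 0.050. Between the clones it moved *Fgfr2* from -0.00028 to 0.11, *Igf1r* from -0.035 to 0.12, *Insr* from -0.024 to 0.10 and *Met* from -0.044 to 0.011. The cause was not tested. A group left with 1 replicate was assumed to vary like the others.

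Over all genes, the count higher in KO over both clones was 93 to 875 (271 as reported) and the count lower 6 to 27 (14 as reported), and leaving out a replicate gave 174 to 265 higher and 4 to 16 lower. In the exon 6 clone 189 higher and 10 lower became 0 and 0 with no minimum level, 10040 and 47 on RPKM as deposited, and 0 higher without KO replicate 1, KO replicate 2 or rescue replicate 1. Between the clones 1154 higher and 1132 lower became 2484 and 261 on RPKM as deposited. In the exon 4 clone 1 fit of all 4 groups called 101 higher and 5 lower. Each clone had 2 replicates a group, and the depth is unknown. Over both clones, with 4 KO and 4 rescue replicates, the changes of *Pdgfra* and *Egfr* did not pass after adjustment.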
